A study of Mus musculus with 4 samples.

Results

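The genes described here are the BCL2 family members that set whether a cell keeps or loses the integrity of its mitochondria. Of the 10 genes named for the group, 9 had a row in all 4 deposited matrices, which list 32265 genes each. These were the survival members Mcl1, Bcl2 and Bcl2l1, the pore-forming members Bax and Bak1, and the BH3-only members Bcl2l11, Bid, Bad and Bbc3. Bcl2a1b, the other survival gene named, was not analysed here because no row carried that symbol.

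Proteins of the BCL2 family act at the outer mitochondrial membrane. BAX and BAK1 form the pores through which cytochrome c leaves, which starts the caspase cascade. BCL2, BCL-xL (from Bcl2l1) and MCL1 bind and restrain them, and BH3-only proteins such as BIM (from Bcl2l11), BID, BAD and PUMA (from Bbc3) oppose the survival proteins or act on the pore formers directly. MCL1 is a short-lived protein that haematopoietic stem cells need to survive. In BCR-ABL positive cells, BIM is a known mediator of death under imatinib, a drug that blocks ABL and also the KIT and PDGF receptor kinases.

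Marrow cells of C57BL/6 mice were sorted as LSK cells, which lack lineage markers and carry both Sca1 and cKit, a gate that holds stem and multipotent progenitor cells. Each of the 4 groups was 1 inDrop library, a droplet method that counts transcripts by unique molecular identifiers (UMIs). The groups were mice with chronic myeloid leukaemia (CML) given imatinib, untreated CML mice, wild type (WT) mice given imatinib and untreated WT mice. The dose of imatinib was 400 mg/kg, gavaged every other day for 30 days, while another label reads 4 weeks. The transgene or graft behind the CML mice and the number of mice pooled into a library are not given in the sources used here. With 1 library per group no difference has a replicate check and no test was made. Every interval below is a 95% interval for counting error only.

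The libraries differed in depth and in cell make-up. Kept cells numbered 5139 in the CML imatinib, 3032 in the CML untreated, 4187 in the WT imatinib and 3030 in the WT untreated library. They held 9540004, 21283108, 8245224 and 13153658 UMIs in the same order of libraries, with medians of 1198, 5160.5, 1486 and 3637.5 UMIs per cell. Ly6a, which encodes Sca1, was at 51.0, 95.8, 49.6 and 192 counts scaled to a total of 1e+06 UMIs (CPM). Kit was at 143, 149, 176 and 136 CPM, so both transcripts of the gate were present in every library. Sums over a library do not show that each cell carried them. Elane, a granule protease of granulocyte progenitors, was at 6779 and 9462 CPM in the CML and WT imatinib libraries, against 979 and 1189 CPM in the CML and WT untreated libraries. Xist stood apart with 2375 CPM in untreated CML cells, while imatinib CML, imatinib WT and untreated WT cells had 94.97, 3.15 and 1.52 CPM. Any difference between mice that Xist reflects cannot be told apart from genotype or treatment in the comparisons that use the CML untreated library. Nor can it be told apart from genotype between CML and WT imatinib cells, where Xist also differed. The part of such a difference in the values below was not tested. The WT imatinib and WT untreated headers shared 1135 barcode names of 5575 and 2863, and the other pairs shared 80 to 340. Over the 1032 names used once in each WT header, cells of the same name had a median correlation of 0.000261 between the libraries over 1000 genes, and neighbouring names, shifted by 1 pair, had -0.00184.

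Mcl1 and Bcl2 were the only members called lower in both imatinib comparisons, and their promoters are shown for that reason. Mcl1 lies on chromosome 3 from 95658788 to 95663176 on the plus strand (GRCm38, GENCODE vM21), and Bcl2 spans 176097 bases of chromosome 1 from 106538178 to 106714274 on the minus strand. The windows run 5′ to 3′ on the strand of the gene, from 250 bases before to 50 bases after the RefSeq start (GRCm38.p6). Capitals mark every match to the GC box GGGCGG or its reverse complement.
Mcl1, chr3:95658471-95658770, plus strand: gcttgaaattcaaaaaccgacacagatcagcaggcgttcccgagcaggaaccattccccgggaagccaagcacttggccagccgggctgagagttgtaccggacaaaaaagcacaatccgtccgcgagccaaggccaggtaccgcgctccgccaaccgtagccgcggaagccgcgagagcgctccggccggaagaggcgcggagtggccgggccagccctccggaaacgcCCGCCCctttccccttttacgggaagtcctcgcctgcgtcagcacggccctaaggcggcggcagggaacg
Bcl2, chr1:106714241-106714540, minus strand: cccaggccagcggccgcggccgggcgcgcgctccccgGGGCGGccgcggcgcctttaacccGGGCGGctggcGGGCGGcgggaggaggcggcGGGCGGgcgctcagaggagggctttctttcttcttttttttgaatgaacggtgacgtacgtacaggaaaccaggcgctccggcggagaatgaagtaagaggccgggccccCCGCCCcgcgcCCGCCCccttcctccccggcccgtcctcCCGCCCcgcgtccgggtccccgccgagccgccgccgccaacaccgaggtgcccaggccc
The Mcl1 window held 1 GC box and the Bcl2 window 7, and their GC contents were 65.7% and 76.0%. Both strands were searched for the GC box, the STAT motif TTCNNNGAA, the AP-1 motif TGANTCA, the cyclic AMP response element TGACGTCA and the CCAAT box CCAAT, with overlapping matches counted. None of the other 4 was found in either window. Of all 32851 mouse promoter windows of this length, 35.7% held a GC box, 8.30% the STAT motif, 7.81% the AP-1 motif, 1.79% the cyclic AMP response element and 37.4% the CCAAT box.

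Under imatinib, transcripts of 2 survival genes were lower in both genotypes, while Bak1 and Bid were higher by less than 2-fold. Mcl1 had 1569 UMIs, or 164 CPM, in the CML imatinib library, against 16454 UMIs, or 773 CPM, in the CML untreated library. It had 1225 UMIs, or 149 CPM, in the WT imatinib library, against 5723 UMIs, or 435 CPM, in the WT untreated library. Both imatinib libraries thus lay below both untreated ones, with no overlap of their counting intervals. In sums over all cells of a library, fewer cells of a type and less RNA per cell cannot be told apart. The log2 ratio of Mcl1 was -2.23 (-2.31 to -2.16) for imatinib over untreated in CML and -1.55 (-1.64 to -1.46) in WT.

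Bcl2, whose protein restrains BAX and BAK1 at the mitochondrion, was at 58.0 CPM in the CML imatinib library, against 163 CPM in the CML untreated library. In WT it was at 68.8 CPM with imatinib, against 191 CPM untreated. The log2 ratios were -1.49 (-1.63 to -1.36) in CML and -1.47 (-1.61 to -1.34) in WT, so the levels were 2.82-fold and 2.78-fold lower with imatinib. Bcl2l1, the gene of BCL-xL, a survival protein of maturing erythroid cells, was at 11.7, 10.4, 8.13 and 11.6 CPM in the CML imatinib, CML untreated, WT imatinib and WT untreated libraries. Its log2 ratio was 0.17 (-0.17 to 0.50) in CML, with -0.15 under TMM scaling, and -0.51 (-0.94 to -0.08) in WT. Of the near identical Bcl2a1 genes, Bcl2a1a alone had a row, with 2, 1, 1 and 0 UMIs in the same order. No UMIs in the WT untreated library allows up to 0.228 CPM at 3 counts. The Bcl2a1a and Bcl2a1b transcripts of GENCODE vM21 are 98.2% identical over 817 aligned bases, so counts between the copies are uncertain.

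**Figure D1:**
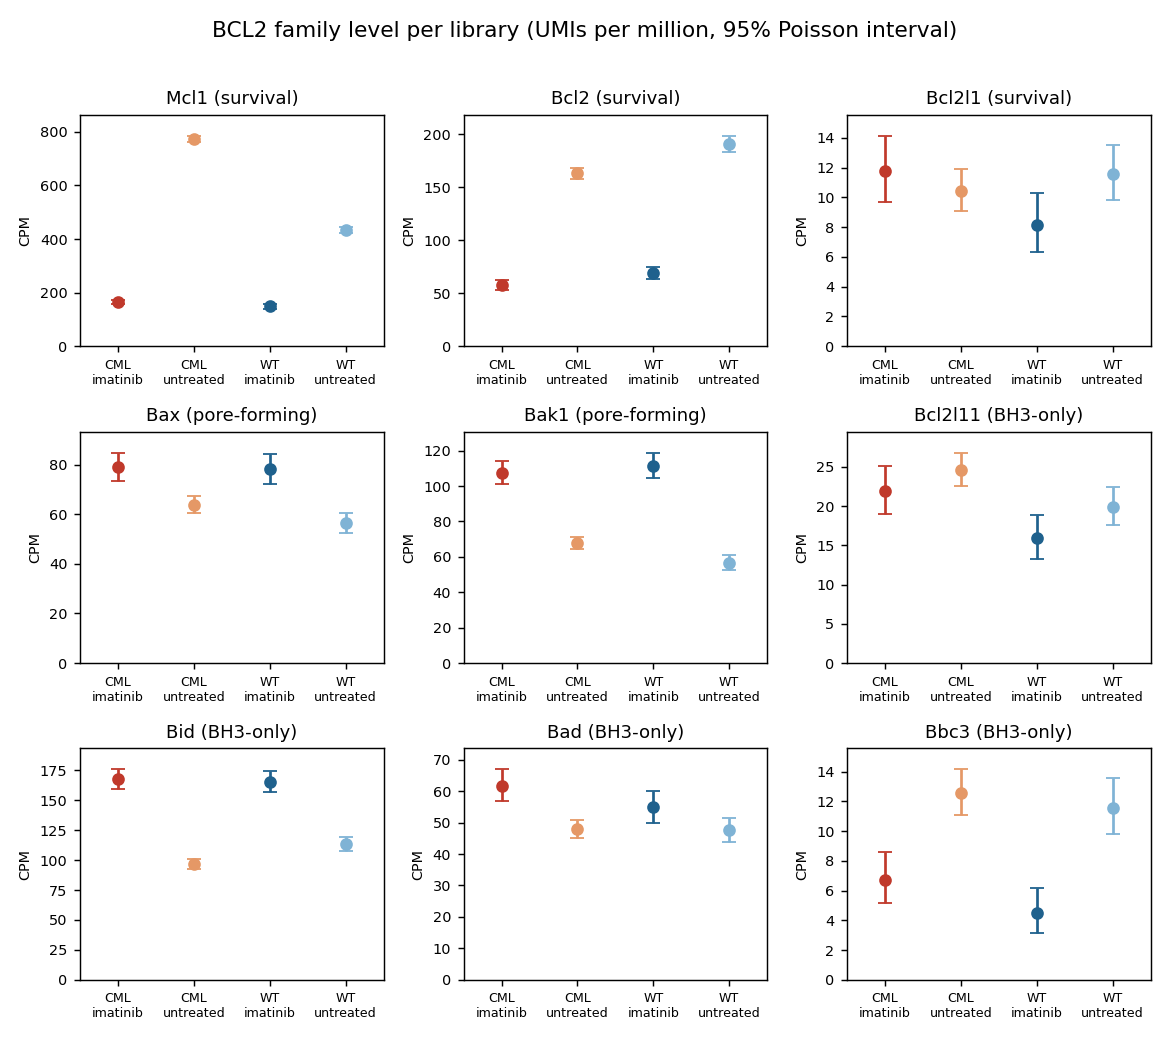
Level of each of the 9 members in CPM (vertical axis, from 0) in the CML imatinib, CML untreated, WT imatinib and WT untreated libraries; points are library values and bars 95% Poisson intervals. Mcl1 stands at 164, 773, 149 and 435 CPM and Bcl2 at 58.0, 163, 68.8 and 191 CPM, with both imatinib libraries low.

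Of the pore-forming members, Bak1 was higher in the imatinib libraries by less than 2-fold, and Bax by less, with no higher value in CML under TMM scaling. Bak1 was at 108 CPM in the CML imatinib library, against 67.8 CPM in the CML untreated library. In WT it was at 111 CPM with imatinib, against 56.7 CPM untreated. Its log2 ratio was 0.67 (0.55 to 0.78) in CML and 0.97 (0.83 to 1.12) in WT, the WT value lying just under 2-fold. Bax was at 79.0 CPM against 63.9 CPM in CML imatinib and CML untreated cells, and at 78.1 CPM against 56.4 CPM in WT imatinib and WT untreated cells. Its log2 ratio in CML was 0.31, but -0.02 with TMM scaling, and in WT it was 0.47.

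The 4 BH3-only genes did not move as a group. Bid, whose product is activated when caspase-8 cleaves it, was at 167 CPM in the CML imatinib library, against 96.7 CPM in the CML untreated library. In WT it was at 165 CPM with imatinib, against 113 CPM untreated. The log2 ratio of Bid was 0.79 (0.70 to 0.89) in CML and 0.55 (0.44 to 0.66) in WT. Bad, whose product is held inactive by phosphorylation, was at 61.7, 47.9, 54.8 and 47.5 CPM in the CML imatinib, CML untreated, WT imatinib and WT untreated libraries. Its log2 ratio was 0.37 in CML and 0.21 in WT, and the WT value was -0.05 with TMM scaling. Bcl2l11 had 21.9, 24.6, 15.9 and 19.9 CPM in those libraries, with log2 ratios of -0.17 (-0.41 to 0.07) in CML and -0.33 (-0.64 to -0.02) in WT. No higher Bcl2l11 level with imatinib was thus seen in either genotype over all kept cells. Bbc3, a target gene of p53, was at 6.71 CPM in the CML imatinib library, against 12.5 CPM in the CML untreated library. In WT it was at 4.49 CPM with imatinib, against 11.6 CPM untreated. Its log2 ratio was -0.90 (-1.32 to -0.50) in CML and -1.36 (-1.92 to -0.84) in WT.

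A call needed a 2-fold difference or more, and the higher of the libraries had to reach 10 CPM and 50 UMIs. By that rule 2 of 9 members were lower in CML imatinib than in CML untreated cells and 0 were higher. Over all 9553 genes measured in that comparison, 7.96% were called lower and 11.5% higher. In WT, 3 of 9 members were lower with imatinib, Mcl1, Bcl2 and Bbc3, and 0 were higher, against 6.72% called lower and 8.36% higher among 9196 genes. The members' median log2 ratio was 0.17 in CML and -0.33 in WT, against 0.01 and -0.03 over all genes measured. Mcl1 kept its call in both genotypes under all 12 alternatives of scaling and cell choice. The Bcl2 log2 ratio was -0.95 in CML by the mean of single-cell CPM, under 2-fold, and the Bcl2 and Bbc3 calls in WT were lost with thinned cells and in cells of 1000 to 3000 UMIs. In CML 3 members were called lower with thinned cells, Bcl2l11 being added, and 3 under TMM scaling, Bbc3 being added. The rank of Mcl1 was 98 of 9553 from the lowest ratio in CML and 292 of 9196 in WT.

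In untreated cells Mcl1 was the member that differed most between CML and WT. These comparisons use the same libraries as those of imatinib with untreated cells. In untreated cells, Mcl1 was at 773 CPM in CML, against 435 CPM in WT, a log2 ratio of 0.83 (0.79 to 0.87). Of the 9 members, 0 were called in either direction, against 0.729% higher and 0.381% lower among 8916 genes. The other 8 members had log2 ratios from -0.23 for Bcl2 and Bid to 0.31 for Bcl2l11. In imatinib cells the Mcl1 log2 ratio of CML over WT was 0.15 (0.04 to 0.26), but -0.09 with TMM scaling. There, 0 of 8 members measured were called, against 3.82% higher and 0.208% lower among 9154 genes. The highest ratios between CML and WT imatinib cells among the measured members were 0.53 (0.08 to 0.99) for Bcl2l1 and 0.46 (0.14 to 0.79) for Bcl2l11. Over the 12 alternatives these 2 ran between -0.10 and 0.69 and between -0.42 and 0.71, so neither kept its direction.

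**Figure D2:**
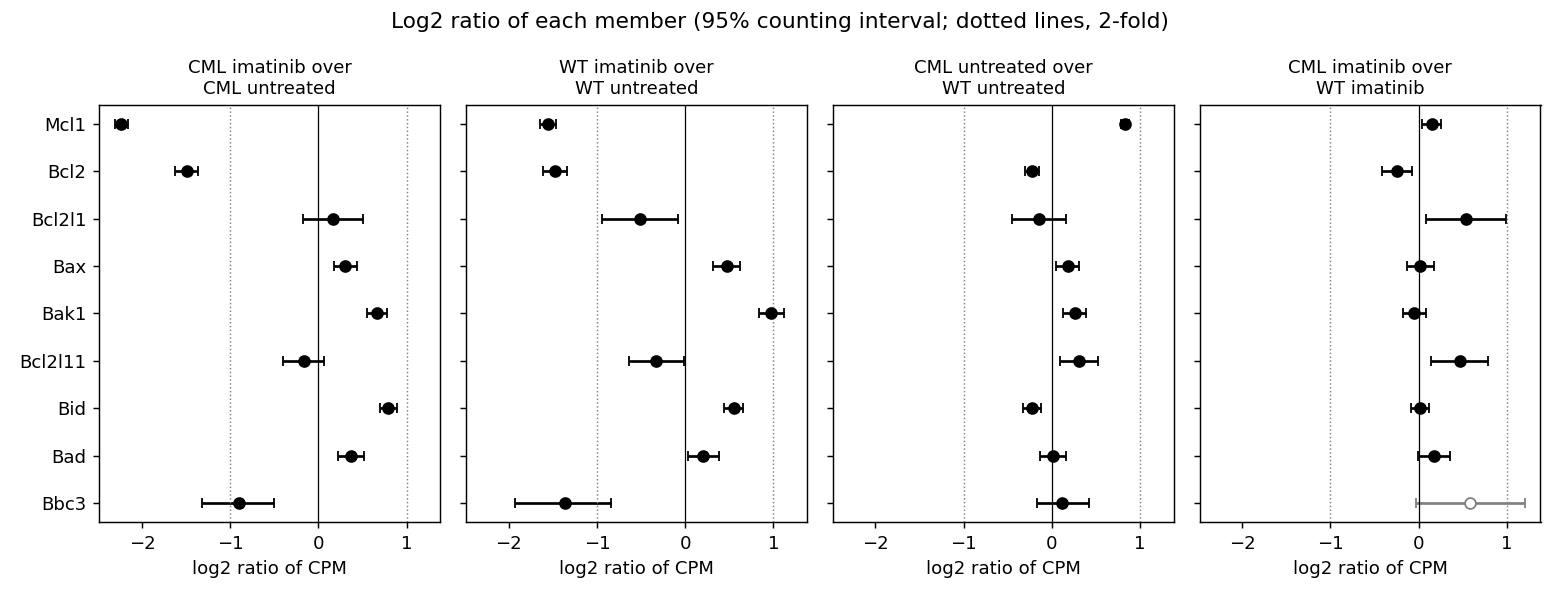
Log2 ratio of CPM (horizontal axis) for each member in the 4 comparisons, first-named library over second; bars are 95% counting intervals, dotted lines mark 2-fold, and the open grey point is below the expression floor. Mcl1 and Bcl2 lie past 2-fold in both imatinib comparisons, at -2.23 and -1.49 in CML and -1.55 and -1.47 in WT.

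The imatinib response of Mcl1 differed between genotypes by -0.68 (-0.80 to -0.57) on the log2 scale, CML minus WT, by counting error alone. For Bcl2 the same difference was -0.02 (-0.20 to 0.16). Bid differed by 0.24 (0.10 to 0.38), Bak1 by -0.31 (-0.49 to -0.13) and Bcl2l1 by 0.68 (0.15 to 1.21), and the intervals of the other 4 members held 0. Whether replicate libraries would differ as much was not tested.

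The shares of cells with a UMI of Mcl1 and Bcl2 were lower with imatinib also when each cell was thinned to 500 UMIs. Mcl1 was then detected in 6.54% of CML imatinib cells, against 28.5% of CML untreated cells, and in 6.66% of WT imatinib cells, against 18.5% of WT untreated cells. Without thinning the shares were 13.1%, 72.2%, 17.9% and 61.7%. Bcl2 was detected after thinning in 2.67%, 7.68%, 3.56% and 7.19% of CML imatinib, CML untreated, WT imatinib and WT untreated cells. For Bid and Bak1 thinning turned the order. Bid was detected in 5.45%, 4.29%, 6.35% and 5.25% of cells after thinning, in the same order of libraries, and in 9.96%, 24.7%, 15.3% and 25.5% without it. Bak1 was detected in 4.495%, 2.90%, 5.49% and 2.67% after thinning and in 11.9%, 25.9%, 16.0% and 18.4% without it. For Bax the thinned shares lay between 2.90% and 3.30% in the 4 libraries. Shares this low can hold free RNA. For Bcl2, Car1-marked erythroid cells thinned to the same depth had a share of 1.33% in the CML untreated and 1.60% in the WT untreated library, below the shares of all cells there. No cell type is known to lack Mcl1, so its background share was not measured.

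The balance of the family's UMIs differed accordingly. Survival genes made up 34.5% (33.4 to 35.7) of the 6473 family UMIs in the CML imatinib library, against 75.1% (74.6 to 75.6) of 26825 in the CML untreated library. They made up 34.4% (33.1 to 35.7) of 5406 in the WT imatinib library, against 67.6% (66.8 to 68.5) of 12403 in the WT untreated library. The pore formers held 27.5%, 10.5%, 28.9% and 11.997% in the order CML imatinib, CML untreated, WT imatinib and WT untreated, and the BH3-only genes held 38.0%, 14.4%, 36.7% and 20.4%. Capture can differ between transcripts, so these shares are set side by side between libraries and not between roles. Most of the survival UMIs were of Mcl1, so the share largely follows that gene.

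**Figure D3:**
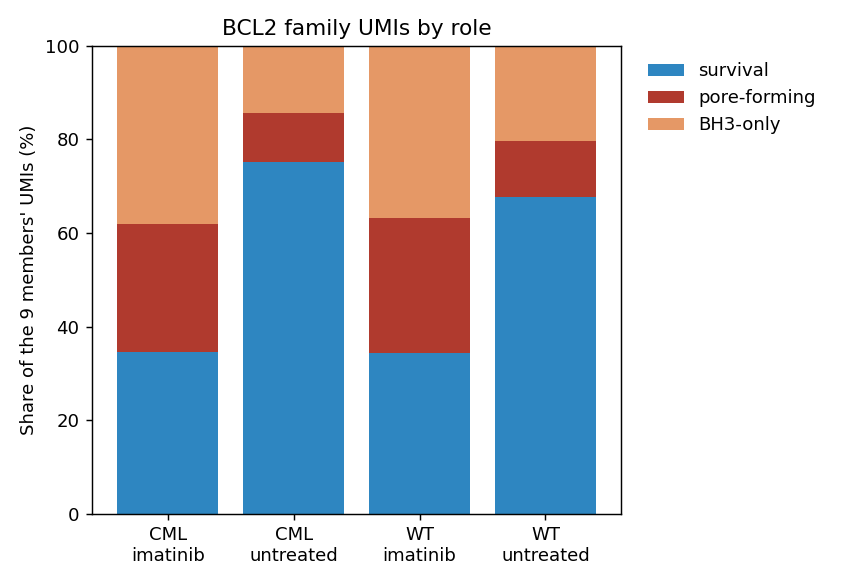
Share of the UMIs of the 9 members (vertical axis, %) held by survival, pore-forming and BH3-only genes in each library. Survival genes take 34.5% and 34.4% in the CML and WT imatinib libraries, against 75.1% and 67.6% in the CML and WT untreated libraries.

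Cells were then set in classes by 1 marker each, as a share of every 10000 UMIs of the cell: Hlf at 2 or more for stem, Elane at 20 for granulocytic, Ngp at 50 for neutrophil, Car1 at 10 for erythroid and Jchain at 50 for plasma. A class is a range of its marker and not a cell type. The granulocytic class held 65.4% of CML imatinib and 10.9% of CML untreated cells, and 67.5% of WT imatinib and 10.03% of WT untreated cells. The stem class held 0.953%, 15.8%, 1.46% and 13.3% of cells in the same order of libraries, so the imatinib libraries held few stem class cells, 49 in CML and 61 in WT. The cuts act unlike at unlike depth, since 1 UMI passes the Hlf cut in a shallow cell and many shallow cells show none. In the CML imatinib library 106 cells passed 0.5 times the Hlf cut and 105 the cut, against 597 and 491 in the CML untreated library. The part of depth in the class shares, and in comparisons within a class, was not tested. Many cells lie near a cut: in the CML untreated library 478 cells passed 0.5 times the Elane cut, 342 the cut and 170 its double. In the CML imatinib library these numbers were 3872, 3469 and 2907. Cells past several cuts were kept apart. Of cells past the Hlf cut, 49 of 105 in the CML imatinib and 61 of 111 in the WT imatinib library passed no other. In the CML and WT untreated libraries, 479 of 491 and 404 of 412 passed no other. The part of this in the stem class values was not tested. The 17 groups of class or unclassed cells by library with at least 50 cells were used.

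Within the granulocytic class, Mcl1 and Bcl2 were lower with imatinib in both genotypes, Bcl2 by less than 2-fold in CML. Mcl1 was at 153 CPM in CML imatinib cells, against 494 CPM in CML untreated cells, a log2 ratio of -1.69 (-1.81 to -1.58). In WT it was at 139 CPM with imatinib, against 292 CPM untreated, a log2 ratio of -1.08 (-1.22 to -0.93). Bcl2 was at 54.8 CPM in CML imatinib cells, against 88.1 CPM in CML untreated cells. Its log2 ratio of -0.69 (-0.92 to -0.45) was under 2-fold. In WT it was at 52.1 CPM with imatinib, against 120 CPM untreated, with a log2 ratio of -1.21 (-1.44 to -0.97). Thus 1 of 7 measured members was called lower in CML, against 5.03% of genes, and 2 of 6 in WT, against 2.19% of genes. With thinned cells no WT member was called lower, where Mcl1 had 41 and Bcl2 20 UMIs in the WT untreated class. Over the alternatives the WT log2 ratio ran between -1.20 and -0.94 for Mcl1 and between -1.33 and -1.15 for Bcl2. In CML the Bcl2 log2 ratio ran between -1.12 and -0.59. No member was called higher as reported, against 10.6% of genes in CML and 7.93% in WT.

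Bid and Bad were nearly level within that class. Bid was at 162 CPM in CML imatinib, 157 in CML untreated, 169 in WT imatinib and 163 in WT untreated granulocytic cells. Its intervals, -0.11 to 0.21 in CML and -0.12 to 0.22 in WT on the log2 scale, leave out the 0.79 and 0.55 of the whole libraries. Bax had log2 ratios of -0.04 and 0.32, Bad of -0.03 and 0.05, and Bak1 of 0.26 and 0.38, each for CML and then WT. The intervals of Bak1, 0.06 to 0.46 in CML and 0.15 to 0.61 in WT, and of Bax in WT, 0.05 to 0.61, left out 0. Bcl2l11 was at 13.5 CPM in WT imatinib cells, against 21.2 CPM in WT untreated cells, a log2 ratio of -0.65 (-1.18 to -0.12), and had -0.11 in CML. Bbc3 had 11 to 31 UMIs in each of these groups, too few for a call. The class was itself not alike between libraries: the neutrophil marker list summed to 3302 and 1956 CPM in the CML and WT imatinib granulocytic cells, against 273 and 130 CPM in the CML and WT untreated ones. The part of these markers in the Mcl1 and Bcl2 values was not tested.

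**Figure D4:**
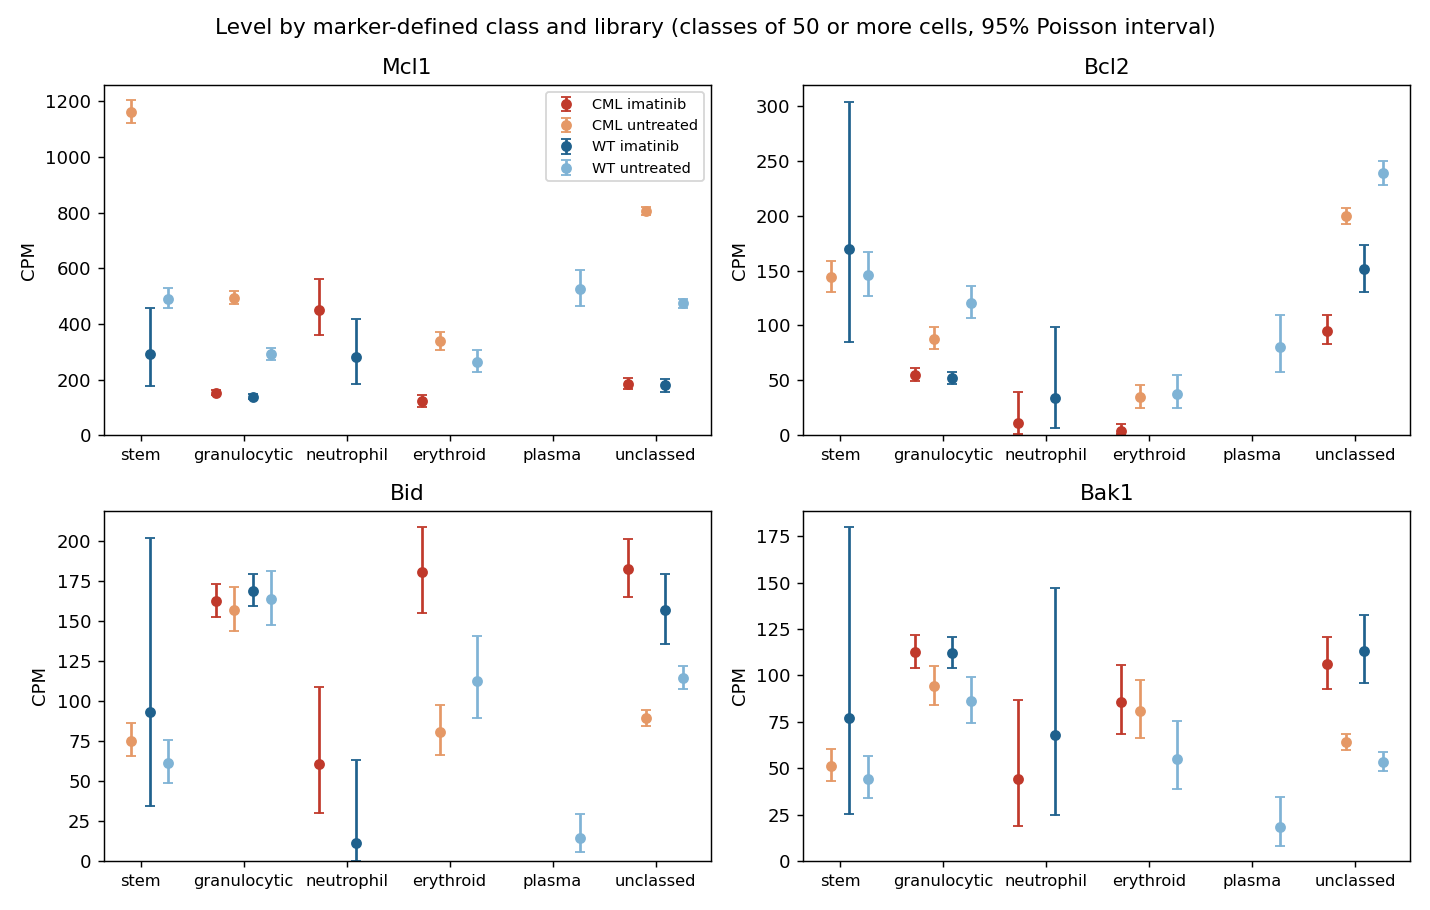
Level in CPM (vertical axis, from 0) of Mcl1, Bcl2, Bid and Bak1 by marker-defined class and library, for groups of 50 or more cells, with 95% Poisson intervals. Mcl1 reaches 1163 CPM in CML untreated stem class cells, and Bid is level across the 4 granulocytic groups at 157 to 169 CPM.

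In the stem class Mcl1 was at 1163 CPM in CML untreated cells, against 491 CPM in WT untreated cells. The log2 ratio was 1.24 (1.13 to 1.36), and Mcl1 was the 1 member of 8 called higher, against 2.6% of the 6542 genes measured. None was lower, against 0.443%. Bcl2 was at 144 CPM against 146 CPM in the same cells, a log2 ratio of -0.02 (-0.26 to 0.23). Bcl2l1 was at 7.87 CPM in CML and 17.5 CPM in WT, from 22 and 25 UMIs, too few for a call. In the 61 WT imatinib stem class cells Mcl1 had 19 UMIs and Bcl2 11, or 294 (177 to 458) and 170 (84.8 to 304) CPM. The log2 ratio of Mcl1 to WT untreated stem class cells was -0.74 (-1.48 to -0.09). That interval holds -0.56, the median over the 2846 genes measured there, so Mcl1 was not set apart from the other genes. Of 3 measured members 0 were called, against 0.457% of genes higher and 30.7% lower at that depth.

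In erythroid class cells 3 of the 4 BH3-only genes were called higher with imatinib in CML by summed UMIs, but not with thinned cells. Sums weigh cells by their depth, and the counting intervals take the UMIs of a cell as independent. In the CML imatinib library Bcl2l11 was at 59.1 CPM, against 20.2 CPM in the CML untreated library, a log2 ratio of 1.55 (0.87 to 2.26). Bid was at 180 CPM against 80.8 CPM, with a log2 ratio of 1.16 (0.81 to 1.51), and Bad at 94.5 CPM against 46.4 CPM, with 1.03 (0.55 to 1.51), in CML imatinib and CML untreated cells. Bbc3 had 4 UMIs against 12, or 3.94 CPM against 8.97 CPM, too few for a call. Mcl1 was at 122 CPM against 337 CPM, a log2 ratio of -1.47 (-1.76 to -1.18). So 3 of 6 measured members were higher and 1 was lower, against 17% and 19.2% of the genes measured in the class. Bcl2l1 had 34 UMIs, or 33.5 CPM, in the 153 CML imatinib cells, against 3 UMIs, or 2.24 CPM, in the 150 CML untreated cells. Bcl2 had 4 UMIs against 46, or 3.94 CPM against 34.4 CPM, in the same cells. The erythroid marker list summed to 7828 CPM in the CML imatinib cells, against 4007 CPM in the CML untreated cells. Its part in these values was not tested. With doubled class cuts the Bcl2l1 log2 ratio was 0.51, against the 3.90 of the counts above. With each cell thinned to 500 UMIs no member was called. Bid then had 8 UMIs in the CML imatinib and 6 in the CML untreated cells, and Bad 7 and 1. Bcl2l11 had 3 UMIs in each library and a log2 ratio of -0.03, and Bcl2l1 had 1 UMI in each, too few to read.

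In neutrophil and plasma class cells Mcl1 had more UMIs than any other member. In the 150 CML imatinib neutrophil cells Mcl1 had 82 UMIs, or 451 (359 to 560) CPM, and in the 73 WT imatinib cells 25 UMIs, or 282 (183 to 416) CPM. The other 8 members had 0 to 11 UMIs in each. Survival genes were 78.8% (70.1 to 85.9) of family UMIs in the CML imatinib and 70.0% (53.5 to 83.4) in the WT imatinib neutrophil cells. These shares exceed the 33.7% and 31.7% of the granulocytic cells of the same libraries. In the 86 plasma class cells of the WT untreated library Mcl1 was at 527 CPM and Bcl2 at 80.7 CPM, with survival genes at 86.5% (82.5 to 89.9) of 349 family UMIs. The other members were between 2.02 and 22.2 CPM there. The plasma marker list took 497443 CPM in the plasma class. The neutrophil list took 267028 and 259519 CPM in the CML and WT imatinib neutrophil cells. CPM of other genes in these cells are thus not like for like with those of other classes.

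In unclassed cells Mcl1 was called lower with imatinib in both genotypes and Bcl2 in CML alone, a difference between genotypes that was not tested. Mcl1 was at 185 CPM in CML imatinib, against 805 CPM in CML untreated, and at 179 CPM in WT imatinib, against 474 CPM in WT untreated unclassed cells. Bcl2 was at 95.4 CPM against 200 CPM in CML, and at 151 CPM against 239 CPM in WT, imatinib cells first. Its log2 ratio was -1.07 (-1.28 to -0.86) in CML and -0.66 (-0.88 to -0.45) in WT, the WT value under 2-fold and smaller than the -1.47 of the whole WT libraries. Bid was higher by a log2 ratio of 1.03 in CML and Bak1 by 1.08 in WT. Of 8 measured members in each genotype, 2 were lower in CML and 1 in WT, against 10% and 7% of genes, and 1 was higher in each, against 12.8% and 5.01%. These cells were not alike either: the mast and basophil list summed to 6107 and 6865 CPM in the CML and WT imatinib unclassed cells, against 1041 and 204 CPM in the CML and WT untreated ones. In cells with at least 3 UMIs of that list Mcl1 was at 221 CPM in CML imatinib, against 875 CPM in CML untreated cells. In WT it was at 140 CPM with imatinib, against 460 CPM untreated. The order of imatinib and untreated was the same as in all cells. A minimum of 3 UMIs is a smaller share of a deep cell than of a shallow one. These cells are thus not matched between libraries, and the part of depth was not tested.

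Set against WT within the other classes, CML cells had no member called. In untreated cells the Mcl1 log2 ratio of CML over WT was 0.76 (0.63 to 0.89) in the granulocytic class, 0.35 (0.10 to 0.61) in the erythroid class, with -0.26 after thinning, and 0.76 (0.71 to 0.82) in unclassed cells, against the 1.24 of the stem class. These classes had 0 of 6, 0 of 4 and 0 of 9 measured members called in either direction. The genes called higher there were 1.7%, 3.49% and 0.912%, and those called lower 0.972%, 0.832% and 0.3%, in the order granulocytic, erythroid and unclassed. In imatinib cells Mcl1 was at 153 CPM in CML and 139 CPM in WT granulocytic cells, and at 451 CPM in CML and 282 CPM in WT neutrophil cells. Its log2 ratios were 0.14 (0.01 to 0.28) and 0.68 (0.02 to 1.39). Bcl2 was at 95.4 CPM in CML imatinib and 151 CPM in WT imatinib unclassed cells, a log2 ratio of -0.66 (-0.95 to -0.37). In imatinib cells 0 of 7, 0 of 1 and 0 of 7 measured members were called in granulocytic, neutrophil and unclassed cells, against 0.959%, 6.71% and 10.3% of genes higher and 0.183%, 1.46% and 2.78% lower.

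Over all kept cells Mcl1 varied with immediate early genes, which respond within minutes to signals and to cell handling. The list of 17 such genes summed to 2766 CPM in the CML imatinib, 15506 in the CML untreated, 2467 in the WT imatinib and 6250 in the WT untreated library. Of its genes, 16 were called lower with imatinib in CML and 14 in WT, and 10 were called higher in CML untreated than in WT untreated cells. The shares over all genes measured were 7.96%, 6.72% and 0.729% in the same order. Egr1 was at 30.9 CPM in CML imatinib cells, against 823 CPM in CML untreated cells. Cells of each library were split in tertiles by the list's share of their UMIs, from lowest to highest. Mcl1 was at 135, 157 and 215 CPM in the CML imatinib, 415, 766 and 1341 in the CML untreated, 120, 155 and 171 in the WT imatinib and 289, 434 and 662 in the WT untreated tertiles. Within the granulocytic class Mcl1 did not increase at each step in every library. There it was at 143, 126 and 189 CPM in CML imatinib and 298, 507 and 697 in CML untreated cells. In WT it was at 117, 146 and 151 CPM with imatinib and 223, 336 and 331 untreated.

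Over all kept cells the lowest untreated tertiles thus held more Mcl1 than the highest imatinib tertiles in both genotypes. In the CML imatinib highest tertile the list summed to 6968 CPM, above the 4071 CPM of the CML untreated lowest tertile, in which Mcl1 was at 415 CPM. Cells of these tertiles had medians of 1184 and 6419 UMIs. List shares of single cells are less exact at low depth, so the tertiles are not matched between libraries. Between CML and WT untreated cells the lowest tertiles stood at 415 and 289 CPM of Mcl1, with the list at 4071 and 1729 CPM. Over all kept untreated cells Bcl2 did not increase with the list, at 150 and 175 CPM in the highest CML and WT tertiles and 165 and 191 CPM in the lowest. In CML imatinib cells it did, from 45.5 (39.0 to 52.8) CPM in the lowest to 72.8 (63.0 to 83.7) CPM in the highest tertile. The WT imatinib tertiles had 70.6, 59.6 and 78.9 CPM of Bcl2, lowest to highest. In the granulocytic class, lowest to highest, the CML untreated tertiles had 92.8, 76.3 and 97.4 CPM of Bcl2, while the WT untreated ones had 82.6, 137 and 149 CPM. Bbc3 was at 20.5 CPM in the highest and 8.14 CPM in the lowest CML untreated tertile, while the WT untreated ones had 21.2 and 6.73 CPM of it. The part of cell handling in these values was not tested, and treatment and library cannot be told apart.

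**Figure D5:**
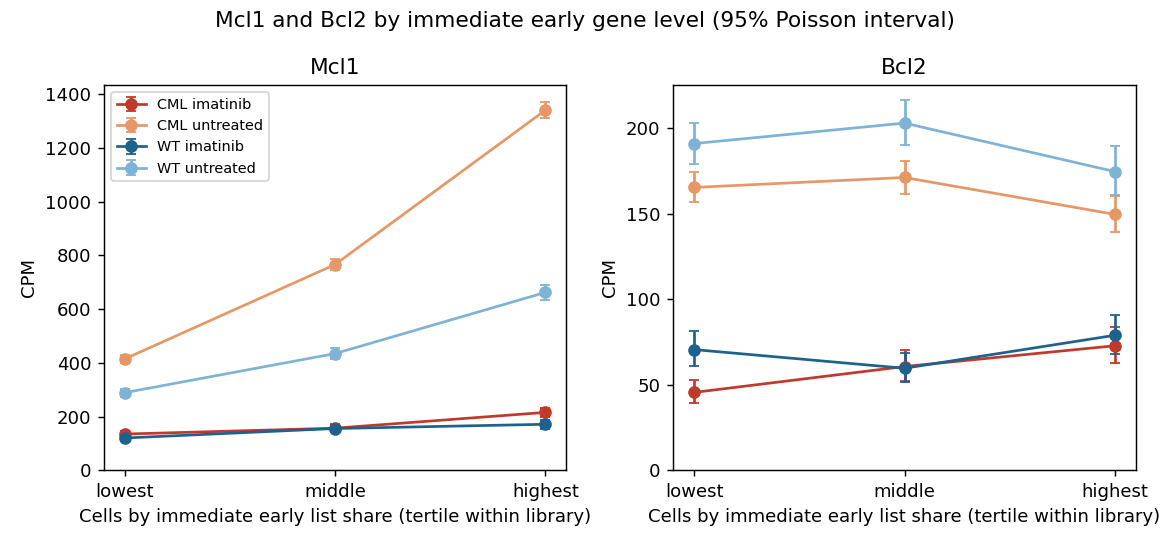
Mcl1 and Bcl2 in CPM (vertical axes, from 0) in cells split by the share of 17 immediate early genes into tertiles within each library, with 95% Poisson intervals. Mcl1 runs between 415 and 1341 CPM over the CML untreated tertiles and between 135 and 215 CPM over the CML imatinib tertiles, while Bcl2 reaches at most 78.9 CPM in an imatinib tertile.

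Over the 17 groups of class and library, levels of log2(CPM + 10) were compared among 9692 genes, or 9693 for Bbc3, as a description, since the groups share libraries and depth. The genes most like Mcl1 were Zfp36 (r = 0.90), an RNA decay factor that is itself on the immediate early list, Btg2 (0.89) and Jund (0.88), which are on it too. Bcl2 ran closest to the transcription factor gene Mef2c (0.92), then Elk3 (0.92) and Dpysl2 (0.91). Bax ran with Pus1 (0.97), Nop16 (0.96) and Atp5g1 (0.96), Bad with Tars (0.97), Eef1g (0.97) and Rack1 (0.97), and Bid with Ciapin1 (0.96), Parl (0.95) and Psmb6 (0.95). Bak1 was most like Tex261 (0.92), Magoh (0.92) and Uggt1 (0.90), Bcl2l11 most like Ttc4 (0.90), Ncaph2 (0.88) and Katna1 (0.88), Bcl2l1 most like Slc25a40 (0.89), Fbxo42 (0.88) and Pask (0.88), and Bbc3 most like Tcf4 (0.92), Efnb1 (0.92) and Cd274 (0.92). Among the members themselves Bax and Bad had r = 0.89, Bax and Bid 0.85, and Mcl1 and Bak1 -0.63.

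Further genes of the death pathway were counted by list. Over all genes measured, 7.96% were called lower and 11.5% higher with imatinib in CML, and 6.72% and 8.36% in WT. The lists are short, so whether their counts differ from these shares was not tested. Of 14 further BCL2 family genes with a row, 6 were measured, and 1 was lower in CML with imatinib: Bcl2l12, at 19.0 CPM against 63.0 CPM untreated, a log2 ratio of -1.73. In WT 0 of 6 were called, and Bcl2l12 had -0.89. Of 16 measured genes acting downstream of mitochondria, 1 was called lower in CML with imatinib and 0 in WT. Cycs, the gene of cytochrome c, was at 504 CPM against 968 CPM in CML and at 522 CPM against 796 CPM in WT, imatinib cells first, under 2-fold in both. Apaf1, which assembles the apoptosome, had a log2 ratio of 0.95 in WT.

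In the p53 axis 2 of 10 genes were lower in CML with imatinib and 1, Sesn2, was higher at 12.6 CPM against 5.50 CPM untreated, while 2 of 8 were lower in WT. The shares of all genes were 7.96% lower and 11.5% higher in CML, and 6.72% and 8.36% in WT. Trp53 was at 132 CPM against 280 CPM in CML (-1.09) and at 154 CPM against 235 CPM in WT (-0.61), imatinib cells first. Cdkn1a, a p53 target that halts the cell cycle, had log2 ratios of -1.09 in CML and -1.87 in WT, and Trp53inp1 had -1.23 in WT. Of 6 measured genes of the death receptor list, Tnfrsf1a alone was called, higher with imatinib in both: 171 CPM against 78.4 CPM in CML (1.13) and 229 CPM against 94.7 CPM in WT (1.27). Casp8, whose product cleaves BID, had -0.92 in CML and -0.60 in WT.

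Of the genes of MCL1 protein turnover, the deubiquitinase gene Usp9x had log2 ratios of -0.10 in CML and -0.06 in WT for imatinib over untreated, and the ubiquitin ligase gene Huwe1 had -0.21 and -0.28. Btrc, a ubiquitin ligase subunit gene, was at 27.7 CPM against 16.3 CPM in CML (0.77) and at 21.7 CPM against 14.7 CPM in WT (0.57), imatinib cells first, and Trib1 at 16.5 CPM against 28.1 CPM in CML (-0.77). Of the 5 genes measured 0 were called in CML, and 1 was lower in WT, Trib1, at 6.55 CPM with imatinib, against 39.5 CPM untreated (-2.59). Over all genes, 7.96% were lower and 11.5% higher in CML, and 6.72% and 8.36% in WT. Between CML and WT untreated cells, 0 genes were called in these lists, apart from the immediate early list. Of all genes, 0.729% were called higher and 0.381% lower there. Between CML and WT imatinib cells 1 was called, Trib1 at 16.5 CPM in CML and 6.55 CPM in WT (1.33), and 0 others in these 5 lists. The shares of all genes were 3.82% higher and 0.208% lower in this comparison. Sesn2, and Trib1 in this comparison, fell outside the naming rule and are named because each was the single call.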

How the data were processed

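Single LSK marrow cells were profiled by inDrop in 4 libraries, 1 per group. The deposited matrices hold a signal per gene and cell: the authors scaled each cell to about the same total, and dividing by the smallest nonzero value of a cell gave whole UMI counts for 100% of nonzero values within 0.02. GRCm38, Bowtie 1.1.1 and Partek 8.0 are listed in the submitters' processing notes. Cells with at least 500 UMIs, 200 genes and at most 20% mitochondrial UMIs were kept, 3030 to 5139 per library, with median depths of 1198 to 5160.5 UMIs. Headers hold 1 name more than there are value columns, so the name of a column is known only up to 1 position. Names enter only the check of shared names and 1 alternative. With the first name skipped in place of the last, same-named WT cells had a median correlation of -0.000234. Doublets were not called, and leaving out the top 5% of cells by UMIs stands in for this.

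UMIs were summed per library or class and scaled to CPM. With 1 library per group no test was made. Ratios have exact conditional binomial, levels exact Poisson and shares exact binomial (Clopper-Pearson) 95% intervals, which cover counting error only. A count of 0 allows up to 3 counts. The steps were tested on simulated data. Class cuts were set after the data were seen, and the members and gene lists were chosen with earlier results of these data known. Of each list, up to 4 genes with at least 20 CPM and the largest absolute log2 ratio could be named per comparison. For each member with at least 50 UMIs in a group, the 3 genes most like it are named, leaving out Gm, Rik, ribosomal and mitochondrial genes. Some single genes of the lists are not reported here. Python 3.11.15, numpy 2.4.6, scipy 1.17.1, pandas 2.3.3, and TMM factors from edgeR 4.0.16 in R 4.3.3 were used.

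Alternatives changed the cell filter, scaling, thinning, fold, depth range, cell make-up and class cuts. The 2 that left out cells with a barcode name found in another library, or cells with T cell, mast cell or monocyte markers, were added after the data were seen.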

Additional observations from a re-analysis of the deposited data

Results flagged for a closer look

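The Bcl2l1 log2 ratios of imatinib over untreated had opposite signs in the genotypes, 0.17 (-0.17 to 0.50) in CML and -0.51 in WT, a difference of 0.68. The CML interval holds 0 and the CML value ran between -0.64 and 0.31 over the alternatives, so no higher Bcl2l1 level in CML was shown. In the same values, the CML over WT ratio of Bcl2l1 was -0.15 in untreated and 0.53 in imatinib cells, a difference of -0.68 taken as untreated minus imatinib. The CML over WT ratio of Bak1 was 0.26 in untreated and -0.05 in imatinib cells, a difference of 0.31. That of Bid was -0.23 in untreated and 0.02 in imatinib cells, a difference of -0.24. With 1 library per group none of these differences was tested. The WT imatinib and WT untreated headers shared 1135 barcode names, more than any other pair.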

How the results depend on the processing

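No paired analysis was possible because each group has 1 library, so no replicate could be left out either. Over 12 alternatives the Mcl1 log2 ratio for imatinib over untreated ran between -2.55 and -2.18 in CML and between -2.04 and -1.51 in WT, and that of Bcl2 between -1.81 and -0.95 in CML and between -1.73 and -0.96 in WT. Of the 675 alternative log2 ratios, 546 moved by less than counting error and 128 by more, and 1 that had been called changed sign. In all 77 changed sign, and none of the others had been called. For 9 class ratios thinning left 0 UMIs in a library and gave no value. Of the counts of members, 157 stayed and 19 moved. TMM scaling shifted the median of all measured genes to -0.34 in the CML and -0.29 in the WT imatinib comparison, and to -0.14 and -0.23 in the CML to WT comparisons of untreated and imatinib cells.

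With a 1.5-fold rule 2 members, Bak1 and Bid, were higher with imatinib in CML, 1, Bak1, in WT, and 1, Mcl1, in CML over WT untreated cells. In WT 1 member, Bak1, was also higher in cells of at least 1000 UMIs, by the mean of single-cell CPM, with cells thinned to 500 UMIs, in cells of 1000 to 3000 UMIs, without the top 5% of cells, and without cells with T cell, mast cell or monocyte markers. In CML 1 member was higher in cells of 1000 to 3000 UMIs (Bak1) and without those marker cells (Bid). Only 1 member, Mcl1, was lower in CML by the mean of single-cell CPM, and in WT with thinning and in cells of 1000 to 3000 UMIs, where Bcl2 and Bbc3 were no longer called.

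The survival share was 33.3% in the CML imatinib and 32.8% in the WT imatinib library in cells of at least 1000 UMIs, and 75.7% in the CML untreated library without neutrophil, erythroid and plasma class cells. In erythroid class CML cells, halved cuts gave 2 members lower with imatinib, Mcl1 and Bcl2. Thinning there gave 0 higher and 0 lower, and the Bcl2l11 log2 ratio reversed to -0.029. In granulocytic WT cells thinning gave 1 member higher with imatinib, Bad, and 0 lower. Bad then had 70 UMIs in the WT imatinib and 3 in the WT untreated class, the latter too few to read. Thinning leaves fewer UMIs by construction, so fewer genes reach the minimum, and depth limits the rarer members Bcl2l1, Bbc3 and Bcl2l11 most.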
